A study of Mus musculus with 7 samples.

Results

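The IL-6 family of cytokines signals through receptor chains at the cell surface, Janus kinases and the transcription factor STAT3, and is held in check by the SOCS proteins. Il6ra, Il6st, Osmr, Lifr, Jak1, Stat3, Socs1, Socs2, Socs3 and Cish were described here as the receptor, relay and inhibitor genes of this system. They were chosen by symbol, and all 10 were found among the 26607 genes listed for each library. RNA-seq libraries were made from C2C12 myotubes, which form when myoblasts of this mouse line fuse in low serum. The control group had no treatment (n = 3, replicates 1, 3 and 4), and the EPS group received electrical pulse stimulation (EPS) at 1 Hz for 24 h from 3 days after differentiation and then rested for 1 h (n = 4, replicates 1 to 4). Both groups were differentiated in medium with 2% FBS. All libraries come from 1 cell line, without nerve, blood supply or other cell types of muscle, and the labels do not say whether libraries came from separate cultures, so the p-values measure the spread between these libraries, which may be technical.

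In this system IL-6 binds IL6RA, LIF binds LIFR, and oncostatin M acts through OSMR or LIFR. Each of these complexes contains gp130, the shared signaling chain encoded by Il6st. JAK1 is the main kinase bound to gp130, and it phosphorylates STAT3, which enters the nucleus and switches on genes that include Socs3. SOCS3 then binds gp130 and JAK and shuts the signal down, while SOCS2 and CISH chiefly restrain growth hormone and STAT5 signaling and SOCS1 restrains interferon signaling. Contracting muscle is known as a source of IL-6. The comparison asks which transcripts differ after contraction-like stimulation, and it was read here for the genes that receive and limit this signal.

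The myotube label was checked against 12 marker genes. Their summed level ran from 12280 to 17250 CPM over the controls and from 9845 to 13110 CPM over the EPS libraries. Of the 12, 10 had lower means on the log2 scale in the EPS group, 1 did not overlap between the groups and 2 had an unadjusted P under 0.05 in limma. Of the genes with a mean of at least 1 CPM 36.4% had lower means, and of all genes tested 10.6% did not overlap and 11.6% had a P under 0.05. On recovered reads, Myog, Ckm, Mymx and Atp2a1 passed an unadjusted P under 0.01 as lower in edgeR and in DESeq2. Of these, Myog (-1.39 and -1.40 on the log2 scale) and Mymx (-1.02 and -1.03) also changed over 2-fold. Of all genes, 3.29% passed both in edgeR and 3.06% in DESeq2. The share of all genes at P under 0.01 alone in these tests is not given here. In bulk RNA, fewer cells of a type and less RNA per cell cannot be told apart, and the part of these markers in the results was not tested. CPM are the reads of a gene scaled to the same total in every library. Markers of leukocytes were low, with a summed level of 1.09 to 2.17 CPM in the control and 1.63 to 2.87 CPM in the EPS group, and Cd3e was at 0 in every library. Of the 4 leukocyte markers tested, Csf1r did not overlap, at 0 to 0.181 CPM in the control and 0.228 to 0.690 CPM in the EPS group, and it alone had an unadjusted P under 0.05. Cd68 was at most 1.09 CPM in the control and 2.07 CPM in the EPS group. The part of these markers in the results was not tested. Endothelial markers summed to 0.843 to 1.54 CPM in the control and to 0.731 to 1.30 CPM in the EPS group. Adipocyte markers were at 0 in the control and at most 0.140 CPM in the EPS group. The summed level of 4 markers of myoblasts and cycling cells was 186 to 278 CPM in the control and 235 to 736 CPM in the EPS group. The cycling genes carry this sum, with log2 fold changes in limma of 1.27 for Mki67 and 0.86 for Top2a. On recovered reads Mki67 passed P under 0.01 with a 2-fold change in edgeR (1.353) and in DESeq2 (1.335). Top2a passed P under 0.01 in edgeR alone. In limma the myoblast markers Pax7 and Myf5 were at -0.12 and 0.20. The groups overlapped in all 4 genes. The part of the cycling genes in the results was not tested. Recovered reads were between 16616917 and 22120641 per library. Control replicate 4 stood apart, with 359 genes at 1 to 5 reads where the other libraries had 2670 to 3181. For members, and for pathway genes past P under 0.01 with a 2-fold change, calls that rest on it are given with and without it. The marker values above include it. It held the highest myotube sum and the highest Myog value, 1794 CPM against 473 and 565 CPM in control replicates 1 and 3. Ckm, at 241 CPM against 100 and 116 CPM in those controls, Mymx and Atp2a1 were also highest in it. Tests of these markers on recovered reads without it are not given here.

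STAT proteins bind DNA at an inverted repeat, so the promoter stretches that hold such a repeat are shown for the inhibitors. RefSeq promoter windows on GRCm38.p6, from 250 bases before to 50 bases after the gene start, were matched for 9 of the 10 genes, and Socs2 had no entry. The motif searched was TTCNNNGAA, which reads the same on both strands. It was present in 8.30% of the 32851 windows of the reference and in those of Socs3 and Cish. The capitals mark the motif, and the Socs3 stretch lies at chr11:117969452-117969616 on the minus strand and the Cish stretch at chr9:107296655-107296684 on the plus strand.
Socs3: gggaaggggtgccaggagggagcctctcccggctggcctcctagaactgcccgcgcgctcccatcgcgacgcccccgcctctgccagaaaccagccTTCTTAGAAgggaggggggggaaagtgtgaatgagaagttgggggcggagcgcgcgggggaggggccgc
Cish: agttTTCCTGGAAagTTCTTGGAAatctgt
Counted from the RefSeq start, the motif of Socs3 begins 154 bases upstream, and those of Cish begin at bases 1 and 12 of the transcript. GENCODE M21 starts both genes further upstream, so in its annotation the same letters begin at base 528 of the Socs3 gene and at bases 634 and 645 of the Cish gene. A match is a description of the letters and does not show binding.

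Levels were first compared between the genes per kilobase of exon, over the exons annotated in GENCODE M21. Jak1 had the highest median level over the 7 libraries, 27.4 CPM per kb, and was above Il6st in 6 of them. Il6st, at a median of 17.9, Stat3, at 18.0, and Lifr, at 16.3 CPM per kb, overlapped in their ranges. Osmr followed at a median of 8.14 CPM per kb. Among the inhibitors, Socs3 had a median of 9.77 and Socs2 of 7.57 CPM per kb, and both ranges overlapped that of Osmr, although Socs3 was above Osmr in all 7 libraries. Socs1 and Il6ra were far lower, at 1.01 and 0.843 CPM per kb, and every value of both was below every Socs2 value. Cish was the lowest, at 0.0498 CPM per kb. The receptor chain specific to IL-6 was below gp130 in each library, with a range of 0.627 to 1.03 against 13.7 to 27.1 CPM per kb.

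**Figure D1:**
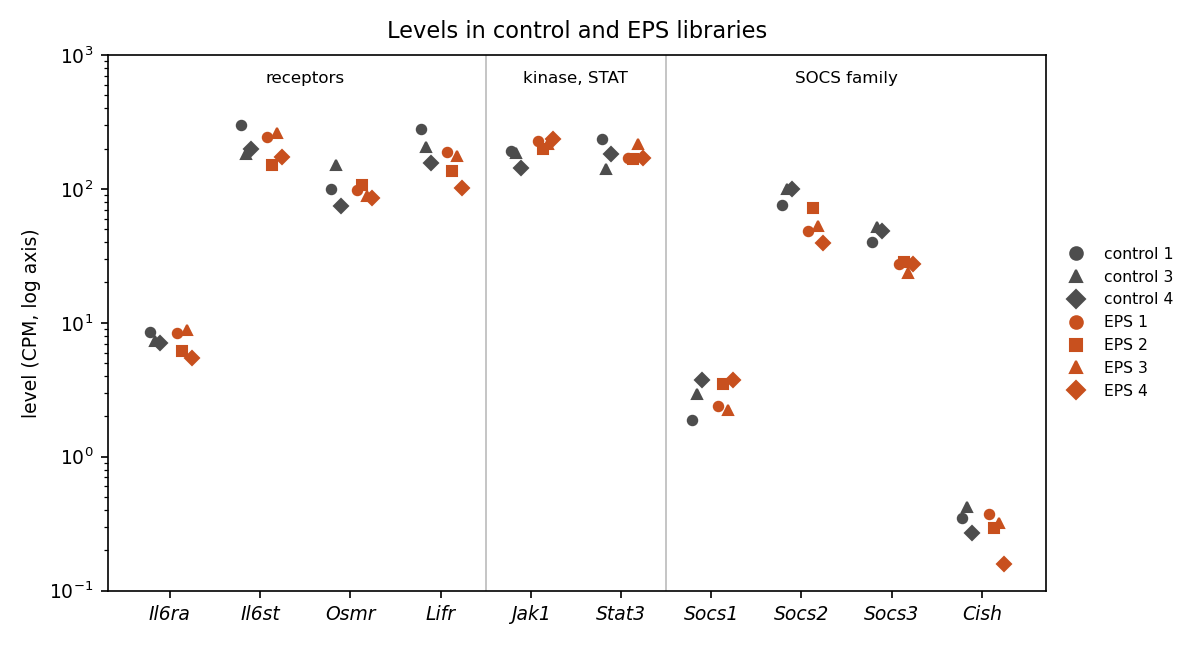
Level of each gene in each library in CPM on a log axis, with control libraries in grey and EPS libraries in orange and the marker shape giving the replicate number. Only Socs2, Socs3 and Jak1 show groups that do not overlap, with Socs2 and Socs3 lower and Jak1 higher in the EPS group.

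Expression was then compared between EPS and control with limma on log2(CPM + 1), over 19144 genes, those above 0 in at least 1 library. Socs3 and Socs2, inhibitors of cytokine and growth hormone signaling, were lower in every EPS library than in every control library, by 1.73-fold and 1.75-fold. The receptors, Stat3, Socs1 and Cish overlapped between the groups, and Jak1 was higher in every EPS library. The study names a P under 0.01 in its results and a P under 0.001 in its methods, both with a 2-fold change, and the first pair is called the DEG thresholds here. At an unadjusted P under 0.01 with a change of over 2-fold, 0 of the 10 genes passed in limma, and 0 in edgeR and 0 in DESeq2 on recovered reads. Of all genes tested, 3.29% passed in edgeR, 3.06% in DESeq2 and 1.41% in limma, 0.966% with higher and 0.439% with lower levels in the EPS group. This split follows the scaling, with 185 genes higher and 84 lower on the deposited scale, 130 and 122 after quantile normalization and 134 and 120 after median-of-ratios scaling. At P under 0.01 alone 2 of the 10 passed, both lower, and 0 passed as higher. Over all genes 4.17% passed at that P, 1.34% as lower and 2.83% as higher. At P under 0.001 alone 1 of the 10, Socs3, passed as lower, against 0.308% of all genes. With Benjamini-Hochberg adjustment over all genes in limma, 0 of the 10 had an adjusted p under 0.05, against 0.141% of all genes, and 2 had an unadjusted P under 0.05, against 11.6%. On recovered reads, 2 had an adjusted p under 0.05 in edgeR, against 1.51% of all genes, and 2 in DESeq2, against 3.39%, in both cases Socs2 and Socs3. With control replicate 4 left out, 0 had one in edgeR, against 0.545% of all genes, and 2 in DESeq2, against 2.78%. Groups did not overlap in 3 of the 10, against 10.6% of all genes. Of the 3, 2 were lower and 1 was higher in the EPS group, against 2.85% and 7.76% of all genes. The median log2 fold change of the 10 genes was -0.11, beside 0.041 over all genes tested.

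SOCS3 is the feedback inhibitor that binds gp130. Socs3 (ENSMUSG00000053113.3) is annotated at chromosome 11, 117966079 to 117970047, minus strand, GRCm38. It was at 40.3, 51.9 and 48.2 CPM in control replicates 1, 3 and 4, from 692, 863 and 1067 reads. It was at 27.3, 28.3, 23.5 and 27.3 CPM in EPS replicates 1 to 4, from 587, 580, 515 and 514 reads. All 4 EPS libraries lay close together and below the lowest control. Controls averaged 46.8 ± 5.92 CPM (SD, n = 3) and EPS libraries 26.6 ± 2.10 CPM (SD, n = 4). The difference on the log2 scale was -0.79 with a standard error of 0.16 and a 95% interval from -1.14 to -0.44 (limma, adjusted p = 0.0968). The exact two-sided permutation test gave p = 0.0286, the smallest that 3 libraries against 4 allow. With control replicate 4 left out, limma gave -0.76 (adjusted p = 0.200), still past an unadjusted P under 0.01. On recovered reads it was -0.92 in edgeR (adjusted p = 0.0251) and -0.93 in DESeq2 (adjusted p = 1.75e-04), while the adjusted p over all alternatives ran up to 0.523. With control replicate 4 left out these were -0.88 in edgeR (adjusted p = 0.0642) and -0.91 in DESeq2 (adjusted p = 5.83e-04).

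SOCS2 is induced by STAT5 and restrains the growth hormone receptor. Socs2 (ENSMUSG00000020027.18) is annotated at chromosome 10, 95385362 to 95417180, minus strand, GRCm38. It was at 76.1, 100.4 and 99.8 CPM in control replicates 1, 3 and 4. It was at 48.0, 72.1, 52.8 and 39.4 CPM in EPS replicates 1 to 4. The groups did not overlap, but EPS replicate 2 came close to control replicate 1. Controls averaged 92.1 ± 13.9 CPM (SD, n = 3) and EPS libraries 53.1 ± 13.9 CPM (SD, n = 4). The difference on the log2 scale was -0.81 with a standard error of 0.21 and a 95% interval from -1.29 to -0.32 (limma, adjusted p = 0.190, and exact permutation test, p = 0.0571). Socs2 no longer passed P under 0.01 in limma when control replicate 3 (log2 fold change -0.74), control replicate 4 (-0.74), EPS replicate 1 (-0.77), EPS replicate 3 (-0.81) or EPS replicate 4 (-0.68) was left out. On recovered reads the log2 fold change was -0.90 in edgeR (adjusted p = 0.0389) and -0.91 in DESeq2 (adjusted p = 0.00871), and over all alternatives the adjusted p ran up to 0.510. Without control replicate 4 these were -0.83 in edgeR (adjusted p = 0.163) and -0.85 in DESeq2 (adjusted p = 0.0473).

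The other SOCS genes of the set differed by less than the spread between libraries. SOCS1 is an inhibitor of JAK kinases best known from interferon signaling. Socs1 (ENSMUSG00000038037.5, chromosome 16 of GRCm38, 10782240 to 10785536) was at 1.87, 2.95 and 3.75 CPM in the control and at 2.37, 3.51, 2.24 and 3.72 CPM in the EPS group. The groups overlapped fully, with a log2 fold change of 0.049 and a 95% interval from -0.55 to 0.65. The sign turned with the scaling, to -0.036 with median-of-ratios scaling. CISH is a STAT5 target that binds receptors of the growth hormone and erythropoietin type. Cish (ENSMUSG00000032578.7, chromosome 9 of GRCm38, 107296026 to 107302784) was near the limit of detection, with 6, 7 and 6 reads in the control and 8, 6, 7 and 3 reads in the EPS group. A count of 0 allows up to 3 reads, which is a floor of 0.136 to 0.181 CPM that covers counting error only. Control replicate 4 had 0 reads of Il27ra against 18 to 54 in the other libraries, so the floor may not hold there. EPS replicate 4 was at this floor, and a difference in Cish was not detectable at this depth (log2 fold change -0.069, 95% interval -0.25 to 0.11 on a scale whose pseudocount of 1 pulls low genes toward 0).

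**Figure D2:**
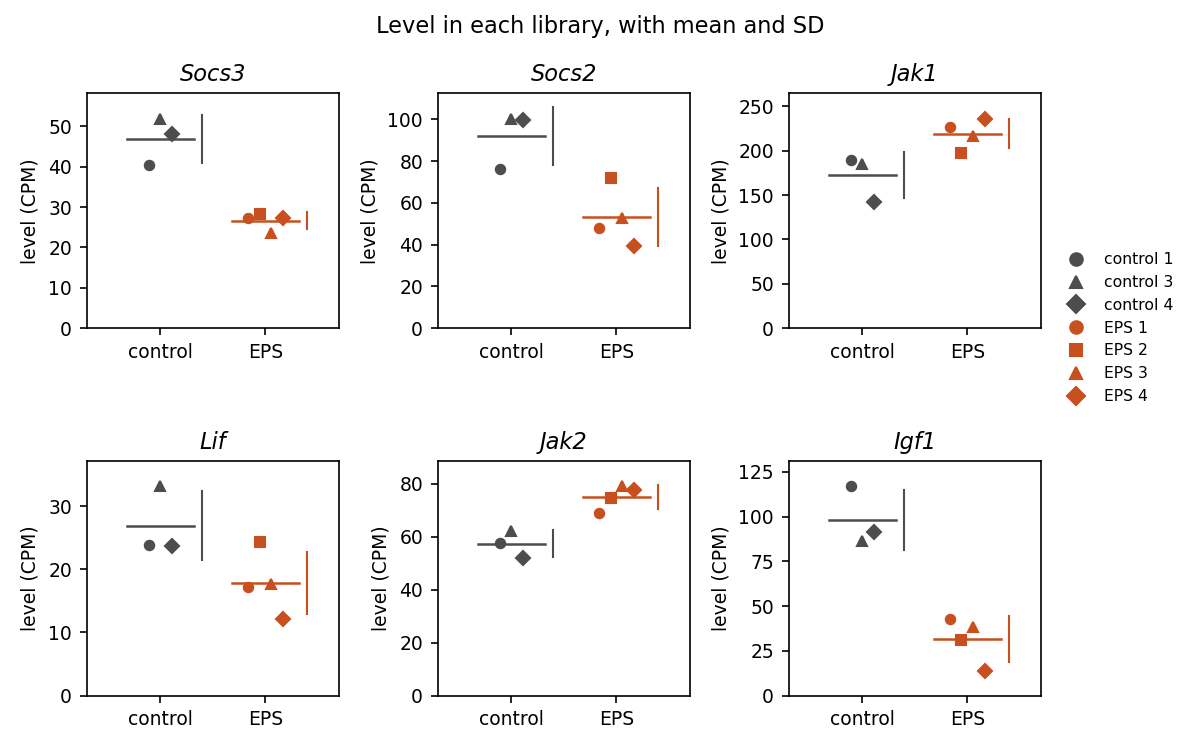
Level in CPM in each control (grey) and EPS (orange) library for 6 genes, with horizontal lines for the group mean, vertical bars for 1 SD and marker shapes for the replicate number. Socs3 runs from 40.3 to 51.9 CPM in the control and from 23.5 to 28.3 CPM in the EPS group, and Lif is the gene of the 6 whose groups overlap.

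JAK1 is the kinase that starts the signal at gp130. Jak1 (ENSMUSG00000028530.14) is annotated at chromosome 4, 101152367 to 101265282, minus strand, GRCm38. It was at 190.1, 185 and 142 CPM in control replicates 1, 3 and 4 and at 227, 198, 217 and 236 CPM in EPS replicates 1 to 4. All 4 EPS values exceeded all 3 control values, with EPS replicate 2 just over control replicate 1. The difference on the log2 scale was 0.35 with a standard error of 0.16 and a 95% interval from -0.0059 to 0.71 (limma, adjusted p = 0.439, and exact permutation test, p = 0.0286). It did not pass P under 0.01 in limma. Without control replicate 4 it was 0.22 (limma, adjusted p = 0.604). The scaling bears on it as well, since genes with a mean of at least 1 CPM had a median log2 fold change of 0.10 on the deposited scale and -0.0048 after median-of-ratios scaling, where Jak1 was at 0.24.

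STAT3 is the transcription factor downstream of gp130. Stat3 (ENSMUSG00000004040.16) is annotated at chromosome 11, 100885098 to 100939540, minus strand, GRCm38. It was at 238, 142 and 183 CPM in the control and at 171, 166, 214 and 169 CPM in the EPS group. All EPS values lay within the range of the controls. The log2 fold change was -0.034 with a 95% interval from -0.49 to 0.42, so a smaller difference in either direction was not detectable with these libraries (exact permutation test, p = 0.914). The transcript level says nothing of the phosphorylation of the protein, which was not measured. Exons of Stat3 overlap those of Stat5a, and exons of Jak1 those of Raver2, on the opposite strand in GENCODE M21, and the strand setting of the read counter is not given in the sources used here. The same holds for Il6ra with Gm42809 and for Cish with Gm17040 and Gm17041.

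The 4 receptor genes had log2 fold changes below 0 on the deposited scale, and the groups overlapped in each. Gp130 is the chain that all of these receptors share. Il6st (ENSMUSG00000021756.12, chromosome 13 of GRCm38, 112464070 to 112510086) was at 300.2, 181 and 199 CPM in the control and at 243, 152, 260.1 and 172 CPM in the EPS group. The log2 fold change was -0.13 with a 95% interval from -0.71 to 0.44, and it was 0.0863 without control replicate 1, the highest library. IL6RA is the chain that binds IL-6 itself. Il6ra (ENSMUSG00000027947.11, chromosome 3 of GRCm38, 89864059 to 89913196) was at 8.57, 7.28 and 7.05 CPM in the control and at 8.43, 6.19, 8.91 and 5.42 CPM in the EPS group, with EPS libraries on both sides of the controls. Its log2 fold change was -0.088 with a 95% interval from -0.66 to 0.49.

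LIFR pairs with gp130 to bind LIF and related ligands. Lifr (ENSMUSG00000054263.12, chromosome 15 of GRCm38, 7090614 to 7197489) was at 278, 204 and 155 CPM in the control and at 187, 135, 176 and 102 CPM in the EPS group. The lowest control library, replicate 4, lay among the EPS values. Lifr had the largest difference of the receptors, with a log2 fold change of -0.50 and a 95% interval from -1.10 to 0.10 (limma, adjusted p = 0.513, and exact permutation test, p = 0.200). It was -0.70 without control replicate 4 and -0.28 without control replicate 1, and it did not pass P under 0.01 in either. OSMR pairs with gp130 to bind oncostatin M. Osmr (ENSMUSG00000022146.12, chromosome 15 of GRCm38, 6813577 to 6874969) was at 98.9, 152 and 74.4 CPM in the control and at 98.6, 107.5, 88.6 and 86.1 CPM in the EPS group. The controls spanned the EPS values on both sides, and the log2 fold change of -0.13 (95% interval -0.65 to 0.39) became 0.14 without control replicate 3.

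**Figure D3:**
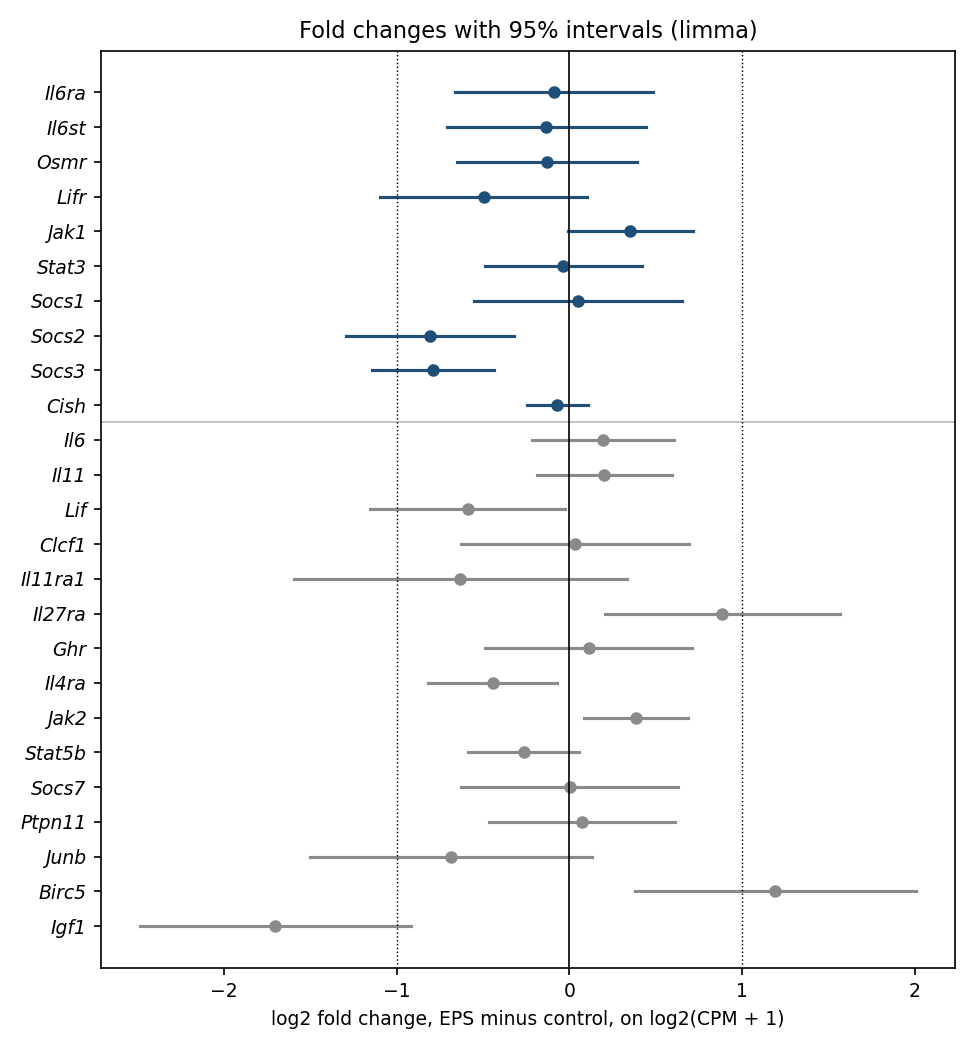
Log2 fold change of EPS against control from limma on log2(CPM + 1), with 95% intervals, for the 10 genes (blue) and for other genes of the pathway (grey). Dotted lines mark a 2-fold change, and among the blue genes the intervals of Socs2 and Socs3 alone lie wholly on one side of 0.

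The ligands and the remaining genes of the pathway were then taken from lists. Of the 10 ligand genes, 8 were above 0 in at least 1 library. Their median log2 fold change was -0.095, beside 0.041 over all genes tested. None passed P under 0.01 in limma, against 4.17% of all genes, and 1 had a P under 0.05, against 11.6%. In edgeR and in DESeq2 Lif alone passed P under 0.01 and none passed with a 2-fold change. The share of all genes at P under 0.01 alone in these count tests is not given here. Lif, which encodes leukemia inhibitory factor and had the highest mean of the list, was at 23.9, 33.2 and 23.7 CPM in the control and at 17.3, 24.3, 17.7 and 12.2 CPM in the EPS group. The groups overlapped through EPS replicate 2 alone, and the log2 fold change was -0.59 with a standard error of 0.25 (limma, adjusted p = 0.408, and exact permutation test, p = 0.114). It was -0.70 in edgeR and -0.71 in DESeq2. Clcf1, which encodes cardiotrophin-like cytokine, was at 6.06 to 11.6 CPM in the control and 6.89 to 11.9 CPM in the EPS group. Il11 was at 0.602 to 1.34 CPM in the control and 1.17 to 1.64 CPM in the EPS group. Il6 had 0 to 10 reads in the control, with the 0 in control replicate 4, and 3 to 13 reads in the EPS group. Osm had 0 reads in each of the 7 libraries. This allows up to 0.136 to 0.181 CPM, a floor that may not hold in control replicate 4.

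Outside the set, 3 more IL-6 family receptors and 12 other receptors that use JAK and STAT proteins were tested. The groups overlapped in all but Il27ra of the 3 and Il4ra of the 12. Of all genes tested, 10.6% did not overlap. Il27ra, the receptor chain for IL-27, was at 1.05, 1.56 and 0 CPM in the control and at 2.28, 2.63, 1.92 and 2.07 CPM in the EPS group. The groups did not overlap, and the difference on the log2 scale was 0.89 with a standard error of 0.30 (limma, adjusted p = 0.289). Without control replicate 4, the library at 0, it was 0.49, and without control replicate 3 it was 1.17 and passed both DEG thresholds. The value depends on the pseudocount, at 2.00 with 0.1 and 1.21 with 0.5, and it was 1.29 in edgeR and 1.27 in DESeq2, or 0.67 and 0.66 without control replicate 4. Il4ra, a receptor chain for IL-4 and IL-13 that signals chiefly through STAT6, was at 102, 91.2 and 111 CPM in the control and at 75.1, 58.8, 84.8 and 80.5 CPM in the EPS group. It was lower in all EPS libraries, with a log2 fold change of -0.44 (limma, adjusted p = 0.336). Il11ra1, the receptor for IL-11, was at 25.1 CPM in control replicate 4 and at no more than 6.77 CPM elsewhere. The difference of -0.63 in limma became -0.042 without that library. With it, Il11ra1 passed both DEG thresholds as lower in edgeR (log2 fold change -1.10) and in DESeq2 (-1.11). Without it these were -0.14 and -0.16, and neither passed. Ghr, the growth hormone receptor that SOCS2 acts on, was at 131 to 203 CPM in the control and 127 to 273 CPM in the EPS group.

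Of the 9 other JAK and STAT genes, none passed P under 0.01 in limma, against 4.17% of all genes. A P under 0.05 was found for 1 of them, against 11.6% of all genes. The groups did not overlap in Jak2, which was higher, and Stat5b, which was lower, against 7.76% and 2.85% of all genes. Jak2, the kinase of the growth hormone receptor, was at 57.7, 62.2 and 52.0 CPM in the control and at 68.9, 74.7, 79.1 and 77.9 CPM in the EPS group. It was above every control in each EPS library, by 0.39 on the log2 scale with a standard error of 0.13 (limma, adjusted p = 0.294, and exact permutation test, p = 0.0286). This was 0.32 without control replicate 4. On recovered reads Jak2 was at 0.29 in edgeR and 0.28 in DESeq2, and neither passed P under 0.01. Stat5b, which carries the growth hormone signal to Socs2 and Igf1, was at 66.9, 63.7 and 58.0 CPM in the control and at 51.6, 54.0, 57.9 and 45.6 CPM in the EPS group. The highest EPS library lay just below the lowest control, a difference of -0.26 on the log2 scale (limma, adjusted p = 0.512). Socs4, Socs5, Socs6 and Socs7 had log2 fold changes from -0.15 to 0.0017, and the groups overlapped in all 4. The phosphatases and PIAS proteins that also limit STAT signaling had log2 fold changes from -0.29 to 0.30, and the groups overlapped in all 8. Ptpn11, the phosphatase that binds gp130 at the site SOCS3 uses, had the highest mean of that list, at 220.1 to 344 CPM in the control and 207 to 353 CPM in the EPS group.

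Textbook targets of STAT3 and STAT5 were counted next. Of the 20 STAT3 targets, 19 were tested, and 1 passed both DEG thresholds in limma, against 1.41% of all genes. The median of the list was -0.16 on the log2 scale, beside 0.041 over all genes tested. That gene was Birc5, which encodes survivin, a protein of dividing cells. It was at 12.5, 14.1 and 13.3 CPM in the control and at 33.3, 24.6, 19.1 and 63.5 CPM in the EPS group. No EPS library overlapped the controls, and the difference on the log2 scale was 1.19 (limma, adjusted p = 0.234). Birc5 passed both thresholds in edgeR (1.30, adjusted p = 0.0393) and in DESeq2 (1.29, adjusted p = 0.0168) as well, and over all alternatives the adjusted p ran up to 0.566. Leaving out control replicate 4 gave 1.31 in edgeR (adjusted p = 0.243) and 1.29 in DESeq2 (adjusted p = 0.0752), still past both thresholds. The cycling genes Mki67 and Top2a were also highest in EPS replicates 1 and 4, and their part in this result was not tested. With single libraries left out in turn, Birc5 passed both thresholds only without EPS replicate 3 (1.43), and it ran from 0.87 without EPS replicate 4 to 1.43. Junb, an AP-1 factor and the highest of the list, was at 697 CPM in control replicate 4 and at 223 and 289 CPM in the other controls, against 181 to 278 CPM in the EPS group. The difference in limma was -0.68 and, without control replicate 4, -0.20. On recovered reads Junb passed P under 0.01 in edgeR (-0.96) and in DESeq2 (-0.97), but without a 2-fold change. Its tests on recovered reads without control replicate 4 are not given here. Cebpd, a STAT3 target that passed both thresholds as lower in edgeR and DESeq2 but not in limma, likewise had its highest value, 51.9 CPM, in control replicate 4. The remaining controls were at 9.79 and 20.9 CPM, and EPS libraries ranged from 5.42 to 16.1 CPM. Its log2 fold change was -1.68 in edgeR and -1.69 in DESeq2. It was -0.81 and -0.83 and no longer passed with control replicate 4 left out. Cebpd was named after its values were seen.
Of the 6 STAT5 targets, 5 were tested and 1 passed both thresholds in limma, against 1.41% of all genes. The median of this list was -0.15 on the log2 scale, with 3 genes below 0 and 2 above it. Igf1, the growth factor through which growth hormone acts on muscle, fell from 117, 86.2 and 91.1 CPM in the control to 42.9, 30.9, 38.4 and 14.0 CPM in the EPS group. All EPS libraries were below all controls, and the difference on the log2 scale was -1.70 with a standard error of 0.35 (limma, adjusted p = 0.101, and exact permutation test, p = 0.0286). The adjusted p was 0.0019 in edgeR and 6.24e-05 in DESeq2, and over all alternatives it ran up to 0.520. Leaving out any 1 library kept Igf1 past both thresholds, with values from -1.88 to -1.37.

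The genes whose pattern over the 7 libraries was most like that of Socs3 were Dusp6, Tubb6 and Myadml2. Likeness was the root mean square difference between centered log2(CPM + 1) values, and it was 0.0878, 0.102 and 0.114 for these, where the median over the 12255 genes compared was 0.534. Dusp6 encodes a phosphatase that inactivates ERK, and its log2 fold change was -0.88. For Socs2 the nearest genes were Isx, Ctsc and ORF63, at 0.0943 to 0.116. For Lifr they were Svep1, Megf10 and Pcdhga1, at 0.0736 to 0.123, and for Osmr Stam2, Fam48a and Phldb2, at 0.0609 to 0.0759. No test was made of these matches, and the nearest of so many genes lie below the median by selection. The values compared include the difference between the groups, so a like gene has a like log2 fold change.

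**Figure D4:**
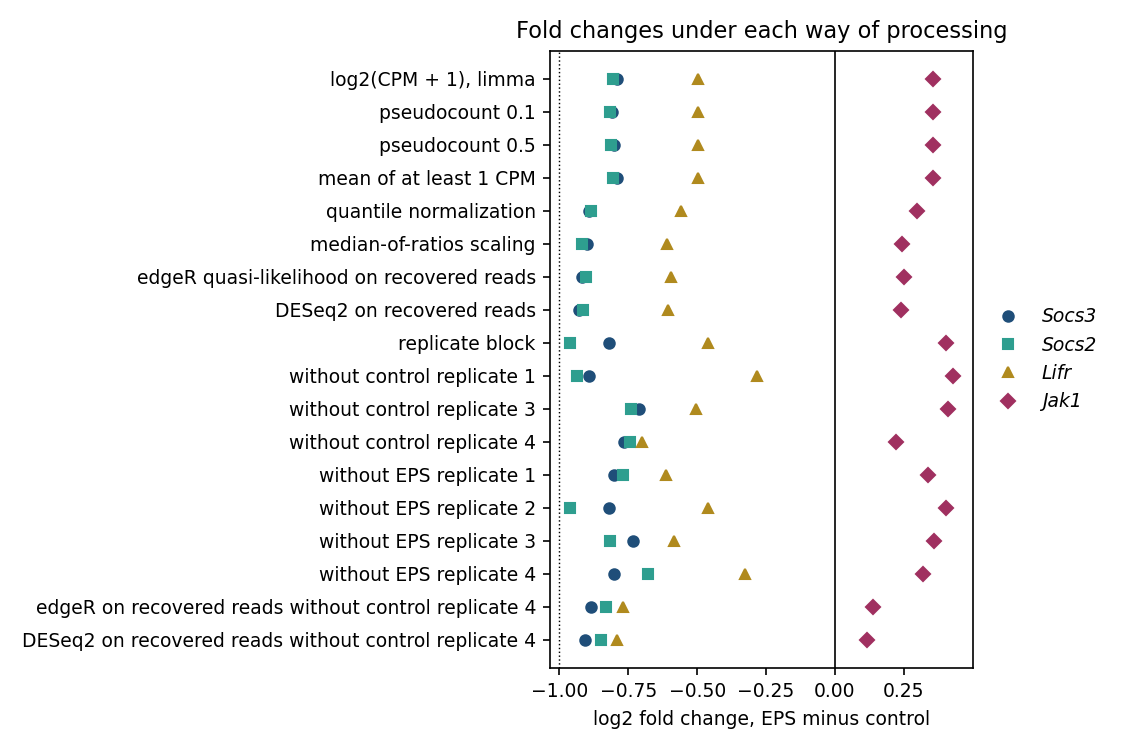
Log2 fold change of EPS against control for Socs3, Socs2, Lifr and Jak1 under each way of processing and without each of the 7 libraries, with the count tests without control replicate 4 at the bottom. The dotted line marks a 2-fold decrease, which none of the points reaches, and each gene stays on its side of 0, with Socs3 from -0.93 to -0.71.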

How the data were processed

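Poly(A) RNA of 7 libraries of C2C12 myotubes was sequenced as paired-end reads of 100 bp. Per the labels, the authors mapped reads to GRCm38 with STAR 2.5.4b, and they deposited CPM, 1 value per gene and library. The read counter, annotation and strand setting are not given in the sources used here. Groups were taken from the treatment label and replicate numbers from the titles.

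Tests ran on log2(CPM + 1) for genes above 0 in at least 1 library, with limma 3.58.1 in R 4.3.3 (empirical Bayes with a mean-variance trend, two-sided, Benjamini-Hochberg over all genes), and single genes with an exact permutation test over all 35 splits. All values (100% in each library, within 0.05 reads) were whole multiples of 1 read, so the recovered reads were also tested with edgeR 4.0.16 and with DESeq2 1.42.0. The remaining alternatives changed the pseudocount (0.1 and 0.5), or used a mean of at least 1 CPM, quantile normalization, median-of-ratios scaling, P under 0.001, the replicate number as a block and leaving out each library. Both count tests without control replicate 4 were added after seeing the data. The fits were tested on simulated data.

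The members and lists were chosen with earlier results of these data known. Beyond the members, a gene of the pathway lists (not of the marker lists) was named if it passed P under 0.01 and 2-fold or an adjusted p under 0.05, if its groups did not overlap at a mean of at least 1 CPM, or if it had the highest mean of its list. Ligands Il6, Il11, Lif, Osm and Clcf1 were always named. A result of 1 other listed gene is not reported here. The 3 genes most like a member were named for members spanning at least 1 on the log2 scale.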

Additional observations from a re-analysis of the deposited data

Results flagged for a closer look

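Stat3 in EPS replicate 3, at 214 CPM, stood apart from the other EPS libraries, which were at 166 to 171 CPM. The gap was 0.888 of the range of the 4 libraries, above Dixon's 95% critical value. Chance gives such a gap in about 1 of 20 groups, and 25 genes were looked at, of which 1 met the criterion. The control libraries of Stat3 ran from 142 to 238 CPM, a range that includes this value.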

How the results depend on the processing

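Socs3 kept its direction and passed P under 0.01 in all 15 planned refits, and Socs2 in 10 of them, while no alternative brought any of the 10 genes past P under 0.01 with a 2-fold change. With P under 0.001, 1 of the 10 genes passed (0.308% of all genes as lower), and with 1 library left out 1 to 2 passed P under 0.01. With adjusted p under 0.05, edgeR gave 2 (1.51% of all genes) and DESeq2 gave 2 (3.39%) of the 10 genes, and leaving out libraries in limma gave 0. Over all genes, those higher in the EPS group past both thresholds numbered 185 in limma, 445 with a pseudocount of 0.1, 329 in edgeR, 317 in DESeq2, 71 at P under 0.001, 99 with the replicate block and 116 to 173 with 1 library left out. Those lower numbered 84, and 156, 300, 268 and 35 under the first 4 of these, and 52 to 82 with 1 library left out. Higher and lower genes numbered 130 and 122 with quantile normalization and 134 and 120 with median-of-ratios scaling. Without control replicate 4, an alternative chosen after seeing the data, edgeR gave 196 lower and DESeq2 184, and 0 and 2 of the 10 genes had an adjusted p under 0.05. Of the 68 other genes of the pathway lists that were tested, 1 was higher past both thresholds in limma, against 0.966% of all genes. The number was 0 with quantile normalization, 0 with median-of-ratios scaling, 0 at P under 0.001, 0 with the replicate block and 0 to 1 with 1 library left out. Of the same 68 genes 1 was lower in limma, against 0.439% of all genes, and 1 to 2 with 1 library left out. The number was 3 in edgeR and 3 in DESeq2, where 300 and 268 of all genes were lower. The 3 were Igf1, Cebpd and Il11ra1, and the 2 were Igf1 and, without EPS replicate 4, Ccnd1.

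Genes with log2 fold changes near 0 turned in sign, and the cause was not tested. With the replicate block, Il6st was at 0.0030, Stat3 at 0.0025, Socs1 at -0.020, Clcf1 at -0.086 and Ghr at -0.098. These equal the values without EPS replicate 2, which has no control of its number. With quantile normalization, Socs1 was at -0.058, Clcf1 at -0.11 and Socs7 at -0.071. With median-of-ratios scaling, Socs1 was at -0.036, Clcf1 at -0.069, Ghr at -0.00099, Socs7 at -0.11 and Ptpn11 at -0.040. In edgeR, Socs1 was at -0.065, Clcf1 at -0.093, Socs7 at -0.098 and Ptpn11 at -0.015, and in DESeq2 at -0.077, -0.10, -0.11 and -0.028. Without control replicate 4, Ghr was at -0.099, Socs7 at -0.21 and Ptpn11 at -0.073 in edgeR, and at -0.12, -0.24 and -0.096 in DESeq2. With 1 library left out, the ranges were -0.18 to 0.024 for Il6ra, -0.28 to 0.086 for Il6st, -0.37 to 0.14 for Osmr, -0.22 to 0.15 for Stat3, -0.15 to 0.21 for Socs1, -0.21 to 0.21 for Clcf1, -0.098 to 0.27 for Ghr, -0.18 to 0.27 for Socs7 and -0.059 to 0.26 for Ptpn11.

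The replicate numbers were used as a block in 1 alternative, which rests on 3 pairs. Deviations of same-numbered libraries from their group means correlated across 12256 genes at 0.245 for number 1, -0.447 for number 3 and 0.0679 for number 4, and nothing in the labels says that same-numbered libraries were cultured together, so the numbers were not taken to pair the libraries. In that fit Socs3 was at -0.82 and Socs2 at -0.96, the same as without EPS replicate 2. Depth limits Cish and Il6, with at most 8 and 13 reads per library.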

Other observations

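Il6ra, Il6st, Lifr and Stat3 shared an order of the libraries within the groups. Control replicate 1 was the highest control in each, and EPS replicates 1 and 3 were above EPS replicates 2 and 4. The order was noticed in the values, so it is a description without a test. It was found in 4 of the 10 genes, in 5 of 55 other pathway genes with a mean of at least 1 CPM (Socs4, Socs7, Ptpn11, Igf1 and Ccnd2) and in 13.0% of the 12256 genes at that level. Jak1, Osmr and the 4 SOCS family genes did not show it. Of the myotube markers, Myh3 and Myh8 showed it and the others did not.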
